A study of Mus musculus with 12 samples.

Results

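The genes described here are 40 mouse genes known as targets of the hypoxia-inducible factors (HIFs) outside glycolysis, such as glucose and lactate transporters, collagen hydroxylases, mitophagy receptors and the hormone adrenomedullin. They were taken by name from a list of HIF targets, with the glycolytic enzymes and the HIF machinery itself left out, and matched by symbol to the gene identifiers of the count files. All 40 of 40 were found among 55401 identifiers, and 36 of them passed the filter on low counts, which 17569 genes passed in all. The list was chosen by name, but with the log2 fold changes of both knockdown contrasts of these same libraries in view. The changes after knockdown below therefore describe the members and are no independent evidence that hypoxia-inducible genes as a class respond.

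The libraries come from Neuro-2a (N2A), a mouse neuroblastoma line, and ask how the transcriptome changes when the RNA-binding protein gene Rbmx or its retrocopy Rbmxl1 is knocked down. Each of 3 groups has 4 libraries named as biological replicates 1 to 4. All groups received 1 µg of a plasmid expressing GFP together with 3 µg of pCAG-miR30 plasmid, which expresses artificial microRNAs, and GFP-positive cells were sorted 48 h after transfection. The scramble group (miScramble) received the scramble construct. The Rbmx knockdown group (miRbmx) received a pool of 3 constructs against Rbmx, and the Rbmxl1 knockdown group (miRbmxl1) a pool of 2 constructs against Rbmxl1. One cell line, transient transfection, pooled microRNAs and a sort on GFP bound what these groups model. The labels name no exposure to low oxygen.

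HIF is a pair of proteins, an alpha subunit and ARNT, that binds DNA at short hypoxia response elements. When oxygen is ample, prolyl hydroxylases of the EGLN family mark the alpha subunit and VHL has it destroyed; when oxygen is short, or these enzymes are blocked, the alpha subunit persists and its targets are transcribed. The targets take up glucose and export acid, divert pyruvate from mitochondria, remove mitochondria, store glycogen, modify collagen and signal to vessels, and tumour cell lines often express many of them.

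HIF binds the core letters ACGTG or GCGTG, so the 250 bases before the start in RefSeq's promoter table were read for 4 members: the 3 called members with the largest change over both knockdowns that have an entry in the promoter table, Ankrd37, Pdk1 and Adm, and Slc2a1, which was included whatever its change. The sequences are RefSeq's for build GRCm38.p6, written 5′ to 3′ on the strand of the gene. Capitals mark ACGTG or GCGTG on either strand, so that CACGT and CACGC are their reverse complements, and neighbouring or overlapping matches form 1 run of capitals. The windows are Ankrd37 at chr8:45999851-46000100 on the minus strand, and Pdk1 at chr2:71872974-71873223, Adm at chr7:110627407-110627656 and Slc2a1 at chr4:119108495-119108744 on the plus strand. This table's start sites can differ from those of the gene spans given further on, which are GENCODE's: the Ankrd37 window lies inside its gene's GENCODE span, and the Slc2a1 window runs past the GENCODE start.
Ankrd37: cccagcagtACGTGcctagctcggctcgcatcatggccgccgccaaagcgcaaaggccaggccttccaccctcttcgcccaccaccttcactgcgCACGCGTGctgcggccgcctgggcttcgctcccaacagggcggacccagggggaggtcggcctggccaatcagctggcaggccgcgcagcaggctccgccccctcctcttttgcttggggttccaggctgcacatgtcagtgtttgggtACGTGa
Pdk1: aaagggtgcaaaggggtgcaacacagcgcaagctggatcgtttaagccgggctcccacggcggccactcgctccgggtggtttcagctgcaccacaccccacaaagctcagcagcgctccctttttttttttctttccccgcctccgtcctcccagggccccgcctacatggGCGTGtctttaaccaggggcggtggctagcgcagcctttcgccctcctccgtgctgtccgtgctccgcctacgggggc
Adm: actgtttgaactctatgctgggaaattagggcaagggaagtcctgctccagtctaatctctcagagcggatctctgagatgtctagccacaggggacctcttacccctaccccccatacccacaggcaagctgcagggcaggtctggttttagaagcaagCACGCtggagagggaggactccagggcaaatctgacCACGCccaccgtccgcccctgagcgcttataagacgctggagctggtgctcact
Slc2a1: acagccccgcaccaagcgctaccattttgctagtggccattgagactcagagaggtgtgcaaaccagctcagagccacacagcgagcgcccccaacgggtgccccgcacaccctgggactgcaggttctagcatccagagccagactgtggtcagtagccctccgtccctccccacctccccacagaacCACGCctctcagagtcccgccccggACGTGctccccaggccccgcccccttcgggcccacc
The Ankrd37 window held 4 matches, the nearest starting 6 bases before the start site. The Pdk1 window held 1, the Adm window 2 and the Slc2a1 window 2. Of the 31 members with an entry in the table, 23 held at least 1 match. Across all 27025 genes with an entry, 38.6% of windows did, 16.5% with ACGTG and 28.3% with GCGTG. Members called in a knockdown and members not called did so about equally, in 13 of 17 and 9 of 12. The E-box CACGTG, which contains ACGTG, was found in 3 of 31 members and 6.04% of all windows. These are matches of letters, not measured binding. The 9 members without an entry are Bnip3l, Stc1, Ndrg1, Slc2a3, Loxl2, Ndufa4l2, Lox, Bhlhe40 and Plod2.

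The 12 libraries held from 43096846 to 52241198 reads counted in genes. The knocked-down genes went the way of the labels: Rbmx stood at 57.6 to 73.3 CPM (a gene's reads scaled to a common library total) in the scramble libraries and at 22.2 to 32.6 CPM after Rbmx knockdown, and Rbmxl1 at 31.3 to 36.7 CPM against 12.3 to 16.7 CPM after Rbmxl1 knockdown. In the other knockdown, Rbmx stood at 81.9 to 90.0 CPM, wholly above scramble, and Rbmxl1 at 34.2 to 38.3 CPM. Of 10 neuronal and neuroblastoma markers 8 passed the filter, with Tubb3, Hand2 and Chgb the highest per kilobase, and the neurofilament genes Nefl and Nefm were near 0. Markers of other cell types were low: 5 fibroblast markers summed to 0.975 to 2.98 CPM, 5 macrophage markers to 0.453 to 1.52 CPM, 5 endothelial markers to 5.14 to 8.75 CPM, almost all Pecam1, and 5 glial markers to 12.9 to 19.9 CPM, mostly Mbp, with Aqp4 and Mog at 0. Replicates 1 and 2 of every group stood apart from replicates 3 and 4 on the first principal component (40.2% of the variance), and many members take part in that split. The values per library below are therefore in the order of the replicate numbers, and the fit took the replicate number as a block, so that it compares libraries with the same number. What the numbers stand for is not given in the sources used here.

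Levels between genes are compared here as CPM per kilobase of exon, averaged over all 12 libraries. Mif, a secreted cytokine-like protein, was highest at 736 CPM per kilobase, followed by the mTOR inhibitor Ddit4 at 178 and the lactate exporter Slc16a3 at 119. Vegfa, at 61.8, and Slc2a3, at 61, came next, and their order turned between groups: 65.2 against 47.7 in scramble and 56.4 against 67.9 after Rbmx knockdown. The other tested members except Car9 lay between 1.71 for Gbe1 and 53 for Fam162a. Car9, often used as a marker of hypoxic tumours, was barely detected at 0.132 CPM per kilobase. Lox and Tmem45a had no read in any library, which for counting error allows up to 3 reads, or 0.0574 to 0.0696 CPM per library on totals without TMM scaling. Stc1 had 0 to 7 reads and Vldlr 0 to 5 reads per library. These 4 were not tested. Exons of Slc2a1, Bnip3, Higd1a, Mxi1 and Ndrg1 overlap little-known gene models on the other strand, as do those of Car9, Plod2, Loxl2 and Bhlhe40. Exons of Loxl2 and Jmjd6 also overlap small gene models on their own strand, those of Jmjd6 overlap Mettl23 and those of Ankzf1 overlap Atg9a and Glb1l on the other strand. Overlaps of Ankrd37, Gys1, Fam162a and Ndufa4l2 are given with these genes.

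**Figure D1:**
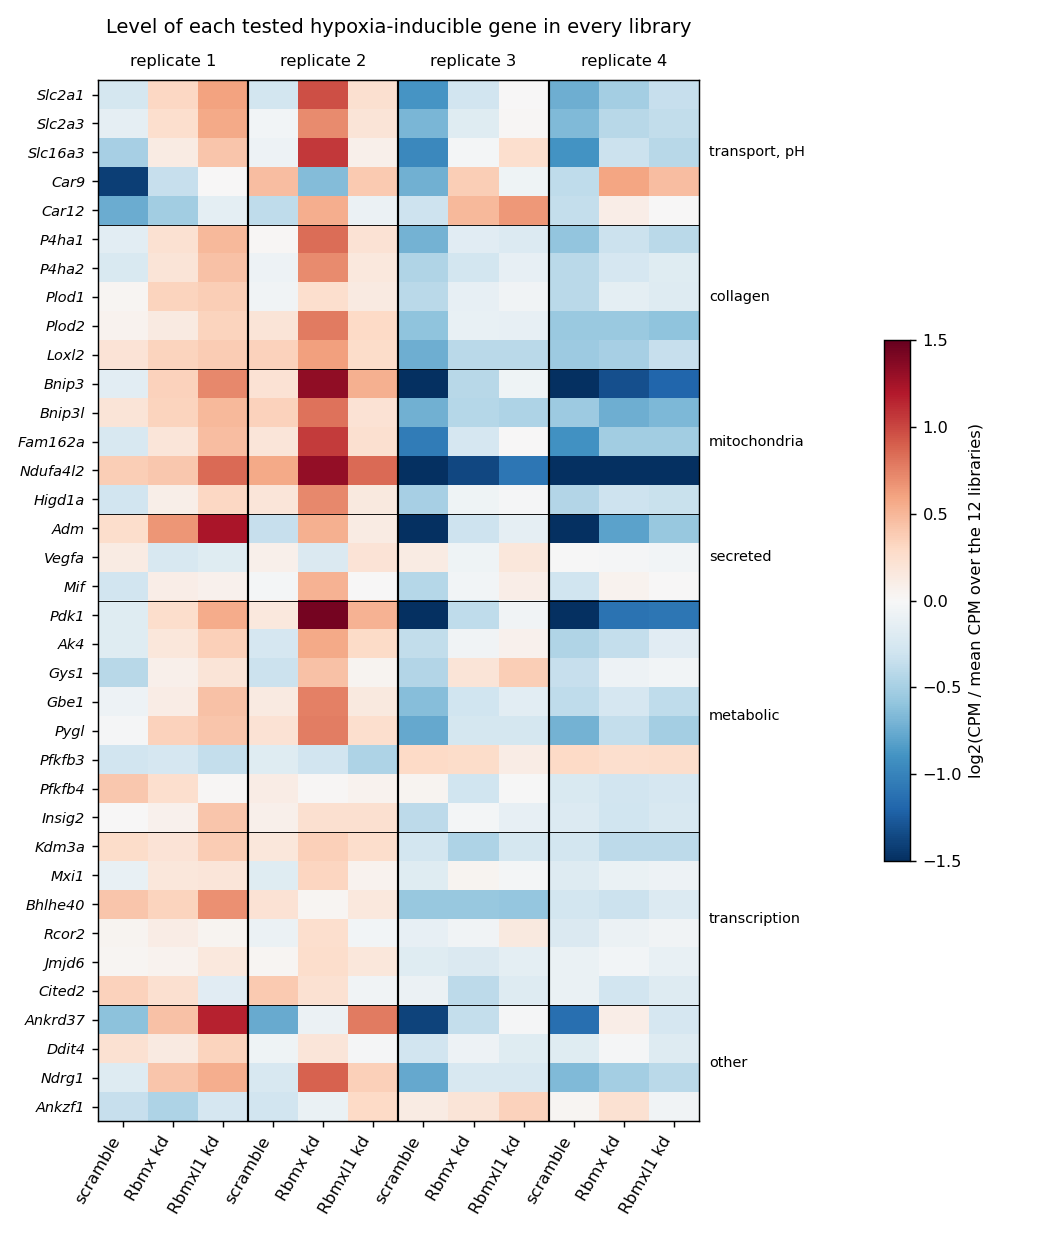
Level of the 36 tested members in every library, as log2 of CPM over the gene's mean CPM in all 12 libraries, with libraries in columns by replicate number and genes in rows by role; colours saturate at 1.5 in either direction. Among libraries of 1 number most genes are redder or less blue in the 2 knockdown columns than in the scramble column, and most are bluer in replicates 3 and 4.

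After Rbmx knockdown 20 of the 36 tested members rose and none fell, where 8.35% of all genes were called in either direction. They span every role: glucose and lactate transporters, collagen hydroxylases, mitochondrial proteins, adrenomedullin, pyruvate dehydrogenase kinase, glycogen enzymes and the transcription regulator Mxi1. After Rbmxl1 knockdown 16 of 36 rose and none fell, where 4.46% of all genes were called, and all 16 had also risen after Rbmx knockdown; Higd1a, Mxi1, P4ha2 and Pygl were called after Rbmx knockdown alone, which is no test of a difference between the knockdowns. Both contrasts use the same 4 scramble libraries, so the shared genes are not separate findings. The median log2 fold change of the tested members was 0.38 after Rbmx knockdown and 0.30 after Rbmxl1 knockdown, against 0.00 and 0.01 over all genes tested. The log2 fold change was above 0 for 30 of 36 members after Rbmx knockdown, as for 50% of all genes, and for 32 of 36 after Rbmxl1 knockdown, as for 51.4% of all genes. Here and below a gene counts as called, or as having risen, at a Benjamini-Hochberg adjusted p under 0.05 over all 17569 genes in edgeR's quasi-likelihood test with the replicate block. By that rule 4.16% of all genes were called higher after Rbmx knockdown and 4.19% lower, and after Rbmxl1 knockdown 2.25% were called higher and 2.2% lower. Because the list was proposed with these contrasts in view, nothing is read from the members' share.

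**Figure D2:**
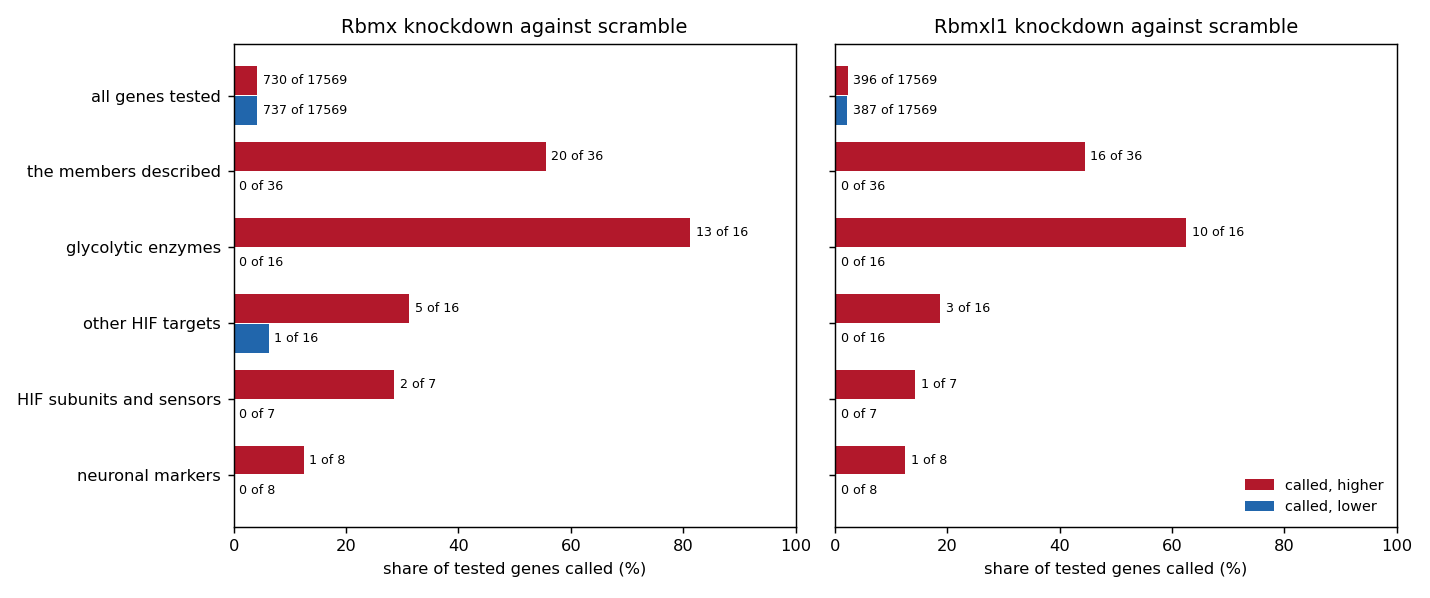
Share of tested genes called higher (red) or lower (blue) in each knockdown against scramble, for all genes, the members described here and 4 lists of related genes, with counts beside the bars. For the members the counts are 20 and 16 of 36 higher and 0 lower; the lists were chosen with earlier results of these libraries known.

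The block decides these calls. Without it, 0 of 36 members were called in either contrast, and 0.00569% of all genes were called in each, that is 1 gene. At an unadjusted p under 0.05 the fit with the block gave 26 of 36 members after Rbmx knockdown, where 24.9% of all genes passed, and 25 of 36 after Rbmxl1 knockdown, where 19.8% did. The fit without the block gave 10 of 36 members after Rbmx knockdown, 9 higher and Vegfa lower, where 10.9% of all genes passed, and 8 of 36, all higher, after Rbmxl1 knockdown, where 8.46% passed. Counted pair by pair, without any model, 23 of 36 members were higher after Rbmx knockdown in 4 of 4 libraries than in their scramble partner, the scramble library with that number, as were 17.7% of all genes. For Rbmxl1 knockdown 21 of 36 were, as were 13.4% of all genes. Bhlhe40, Cited2, Pfkfb4 and Vegfa were lower in 4 of 4 pairs after Rbmx knockdown (16.8% of all genes were), and Cited2, Pfkfb3 and Pfkfb4 after Rbmxl1 knockdown (12.6%). Fewer members had groups of 4 libraries that did not overlap: Ankrd37, Gys1 and Mxi1 lay wholly above scramble after Rbmx knockdown (4.22% of all genes did), and Ak4, Ankrd37, Car12, Gys1, Mif and Mxi1 after Rbmxl1 knockdown (2.88%). Vegfa lay wholly below scramble after Rbmx knockdown (3.85%), and no member did after Rbmxl1 knockdown (2.79%). In bulk RNA, more cells that express a gene and more RNA per cell cannot be told apart.

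**Figure D3:**
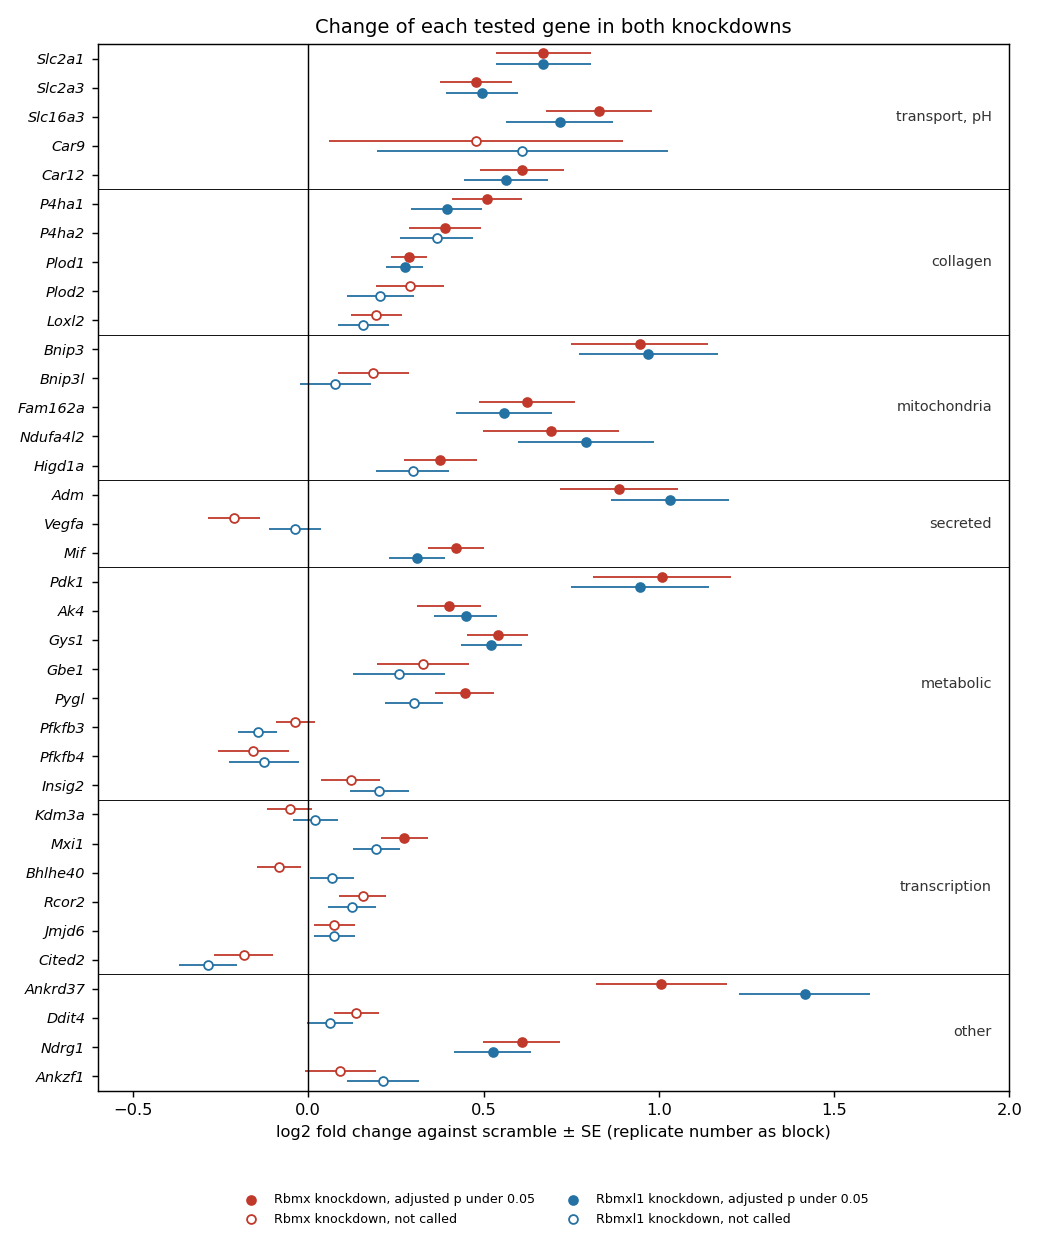
Log2 fold change ± SE of the 36 tested members after Rbmx (red) and Rbmxl1 (blue) knockdown, from the fit with the replicate block; filled points are called. Pdk1 and Ankrd37 reach 1.01 after Rbmx knockdown and Ankrd37 reaches 1.42 after Rbmxl1 knockdown, and Cited2, Pfkfb3, Pfkfb4 and Vegfa lie below 0 in both knockdowns.

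Among the transport and pH genes, 4 of 5 rose in both knockdowns. Slc2a1 (ENSMUSG00000028645, chr4:119108711-119137983 in GRCm38), the widespread basal glucose transporter, stood at 76.1, 75.4, 49.4 and 54.6 CPM in the scramble libraries, 113, 177, 74.4 and 63.8 CPM after Rbmx knockdown and 139, 108, 91.4 and 71.7 CPM after Rbmxl1 knockdown. Replicate 2 of the Rbmx knockdown was by far its highest library, and the groups overlapped through replicates 3 and 4 of the Rbmx knockdown and replicate 4 of the Rbmxl1 knockdown. The log2 fold change of Slc2a1 ± SE was 0.67 ± 0.14 (adjusted p = 0.0108) and 0.67 ± 0.14 (adjusted p = 0.0155) for Rbmx and Rbmxl1 knockdown, in that order here and for the genes below. Slc2a3, the glucose transporter typical of neurons, had 402, 428, 274 and 279 CPM in the scramble libraries, 524, 723, 388 and 331 CPM after Rbmx knockdown and 655, 505, 449 and 342 CPM after Rbmxl1 knockdown. Every knockdown library exceeded its scramble partner, and the change was 0.48 ± 0.10 (adjusted p = 0.0138) and 0.49 ± 0.10 (adjusted p = 0.0166).

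Slc16a3, which exports the lactate that glycolysis makes, reached the largest change of this class. It had 448, 602, 323 and 341 CPM in the scramble libraries, 691, 1323, 621 and 506 CPM after Rbmx knockdown and 845, 669, 751 and 476 CPM after Rbmxl1 knockdown. Scramble replicates 3 and 4 were the lowest libraries, and scramble replicate 2 lay above 2 of the 8 knockdown libraries. The change was 0.83 ± 0.15 (adjusted p = 0.00803) and 0.72 ± 0.15 (adjusted p = 0.0181). Car12, a carbonic anhydrase of the cell surface that helps to set pH, stood at 57.5, 73.9, 77.7 and 75 CPM in the scramble libraries, 67.2, 139.9, 135 and 103 CPM after Rbmx knockdown and 86.8, 90.6, 151 and 96.8 CPM after Rbmxl1 knockdown. After Rbmxl1 knockdown it lay wholly above scramble, whereas replicate 1 of the Rbmx knockdown fell within the scramble range. Its change was 0.61 ± 0.12 (adjusted p = 0.00956) and 0.56 ± 0.12 (adjusted p = 0.0185). The related Car9 had only 5 to 21 reads per library and was not called, with 0.48 ± 0.42 and 0.61 ± 0.41.

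Of the collagen-modifying enzymes 5 of 6 were tested, of which 3 rose after Rbmx and 2 after Rbmxl1 knockdown. P4ha1, a catalytic subunit of collagen prolyl hydroxylase, had 160.0, 181, 109 and 118 CPM in the scramble libraries, 209, 319, 159 and 143 CPM after Rbmx knockdown and 250.1, 208, 156 and 136 CPM after Rbmxl1 knockdown. In each replicate number both knockdowns exceeded scramble, while replicates 3 and 4 stood at a log2 ratio of -0.69 to replicates 1 and 2. The change of P4ha1 was 0.51 ± 0.10 (adjusted p = 0.00957) and 0.39 ± 0.10 (adjusted p = 0.0388). Its paralogue P4ha2 had 184, 204, 157 and 162 CPM in the scramble libraries, 246, 350.4, 178 and 181 CPM after Rbmx knockdown and 291, 239, 197 and 189.9 CPM after Rbmxl1 knockdown. It was called after Rbmx knockdown (0.39 ± 0.10, adjusted p = 0.0310), though not by DESeq2 (adjusted p = 0.0634), and missed the threshold after Rbmxl1 knockdown (0.37 ± 0.10, adjusted p = 0.0557).

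Plod1, a collagen lysyl hydroxylase, showed a small change with little scatter within replicate numbers. Its levels were 157, 148, 117 and 116 CPM in the scramble libraries, 195, 184, 142 and 139 CPM after Rbmx knockdown and 199.6, 169.6, 148 and 135 CPM after Rbmxl1 knockdown. The change was 0.29 ± 0.05 (adjusted p = 0.00777) and 0.28 ± 0.05 (adjusted p = 0.0117), the smallest SE among the called members. Plod2, the lysyl hydroxylase most often tied to hypoxia, was not called, at 0.29 ± 0.10 (adjusted p = 0.0737) and 0.21 ± 0.10 (adjusted p = 0.250). The lysyl oxidase Loxl2, which cross-links collagen, had 0.19 ± 0.07 and 0.16 ± 0.07 and was not called either.

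The mitochondrial members held some of the largest changes. Bnip3, a receptor that marks mitochondria for autophagy (ENSMUSG00000078566, chr7:138890836-138909519), had 72.8, 94.6, 18.9 and 22 CPM in the scramble libraries, 103, 204, 60.9 and 32.6 CPM after Rbmx knockdown and 134, 117, 77.9 and 35.5 CPM after Rbmxl1 knockdown. Scramble replicates 3 and 4 and both knockdown libraries of replicate 4 were low, and replicate 2 of the Rbmx knockdown was the highest. The change was 0.95 ± 0.20 (adjusted p = 0.0120) and 0.97 ± 0.20 (adjusted p = 0.0157), while the paralogous receptor Bnip3l had 0.19 ± 0.10 and 0.08 ± 0.10 and was not called. Of the 50-base words in Bnip3 exons 62.4% also occur in another gene of the annotation, read on either strand, so its count is less certain. For Bnip3l this share was 23.4% and for Loxl2 45.8%. The other gene can be one that overlaps the member.

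Fam162a, a mitochondrial protein induced by hypoxia, had 38.3, 51.2, 21.8 and 24.1 CPM in the scramble libraries, 51.3, 93.1, 38 and 31.3 CPM after Rbmx knockdown and 62, 53.3, 45.1 and 31.3 CPM after Rbmxl1 knockdown. It exceeded its scramble partner in 8 of 8 knockdown libraries, with 0.62 ± 0.14 (adjusted p = 0.0152) and 0.56 ± 0.14 (adjusted p = 0.0340). DESeq2 gave the second an adjusted p of 0.0541. Ndufa4l2, a respiratory-chain protein related to NDUFA4 and known as a strong HIF target, had 9.06, 10.4, 1.11 and 0.975 CPM in the scramble libraries, 9.24, 17.5, 2.71 and 2.10 CPM after Rbmx knockdown and 12.6, 12.6, 3.29 and 2.47 CPM after Rbmxl1 knockdown. The libraries of replicates 3 and 4, at 0.975 to 3.29 CPM, lay far below those of replicates 1 and 2, at 9.06 to 17.5 CPM, in every group. Its change was 0.69 ± 0.19 (adjusted p = 0.0383) and 0.79 ± 0.19 (adjusted p = 0.0336). Higd1a, a small inner-membrane protein of the respiratory chain, had 24.8, 34.3, 21.3 and 22.3 CPM in the scramble libraries, 32.1, 49.7, 29.1 and 24.4 CPM after Rbmx knockdown and 37.5, 33.6, 29.9 and 24.1 CPM after Rbmxl1 knockdown. It was called after Rbmx knockdown (0.38 ± 0.10, adjusted p = 0.0365) and not after Rbmxl1 knockdown (0.30 ± 0.10, adjusted p = 0.116). Exons of Ndufa4l2 and Fam162a overlap those of Shmt2 and Wdr5b on the other strand. Of the words of Higd1a 36.6% occur in another gene, read on either strand. The strand setting of the counting is not given in the sources used here, so these counts are less certain.

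Among the secreted factors, Adm and Mif rose and Vegfa did not. Adm, which encodes the vasodilator peptide adrenomedullin (ENSMUSG00000030790, chr7:110627661-110629820), had 7.10, 4.65, 2.01 and 1.52 CPM in the scramble libraries, 9.37, 8.53, 4.75 and 3.37 CPM after Rbmx knockdown and 13.8, 6.41, 5.40 and 3.97 CPM after Rbmxl1 knockdown. Every knockdown library was above its scramble partner, and replicate 1 of the Rbmxl1 knockdown was the highest of all. The change was 0.89 ± 0.17 (adjusted p = 0.00882) and 1.03 ± 0.17 (adjusted p = 0.00644). Mif had 448, 538, 409 and 446 CPM in the scramble libraries, 589, 789, 531 and 568 CPM after Rbmx knockdown and 574, 549, 587 and 552 CPM after Rbmxl1 knockdown. Its 4 Rbmxl1 knockdown libraries lay within a narrow band above scramble, and the change was 0.42 ± 0.08 (adjusted p = 0.00918) and 0.31 ± 0.08 (adjusted p = 0.0421). For Mif 40.5% of the exon words occur in another gene.

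Vegfa, the main angiogenic growth factor and one of the best known HIF targets, had values below 0 in both contrasts. It had 289, 278, 288 and 263 CPM in the scramble libraries, 225, 228, 253 and 261 CPM after Rbmx knockdown and 233, 305, 299 and 257 CPM after Rbmxl1 knockdown. All 4 Rbmx knockdown libraries lay below all 4 scramble libraries, a pattern seen in 3.85% of all genes, but the change of -0.21 ± 0.07 was not called (adjusted p = 0.0903), and after Rbmxl1 knockdown it was -0.04 ± 0.07 (adjusted p = 0.835). Vegfa also differed little between the replicate sets, at a mean of 259.8 CPM in replicates 1 and 2 and 270.2 CPM in replicates 3 and 4.

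**Figure D4:**
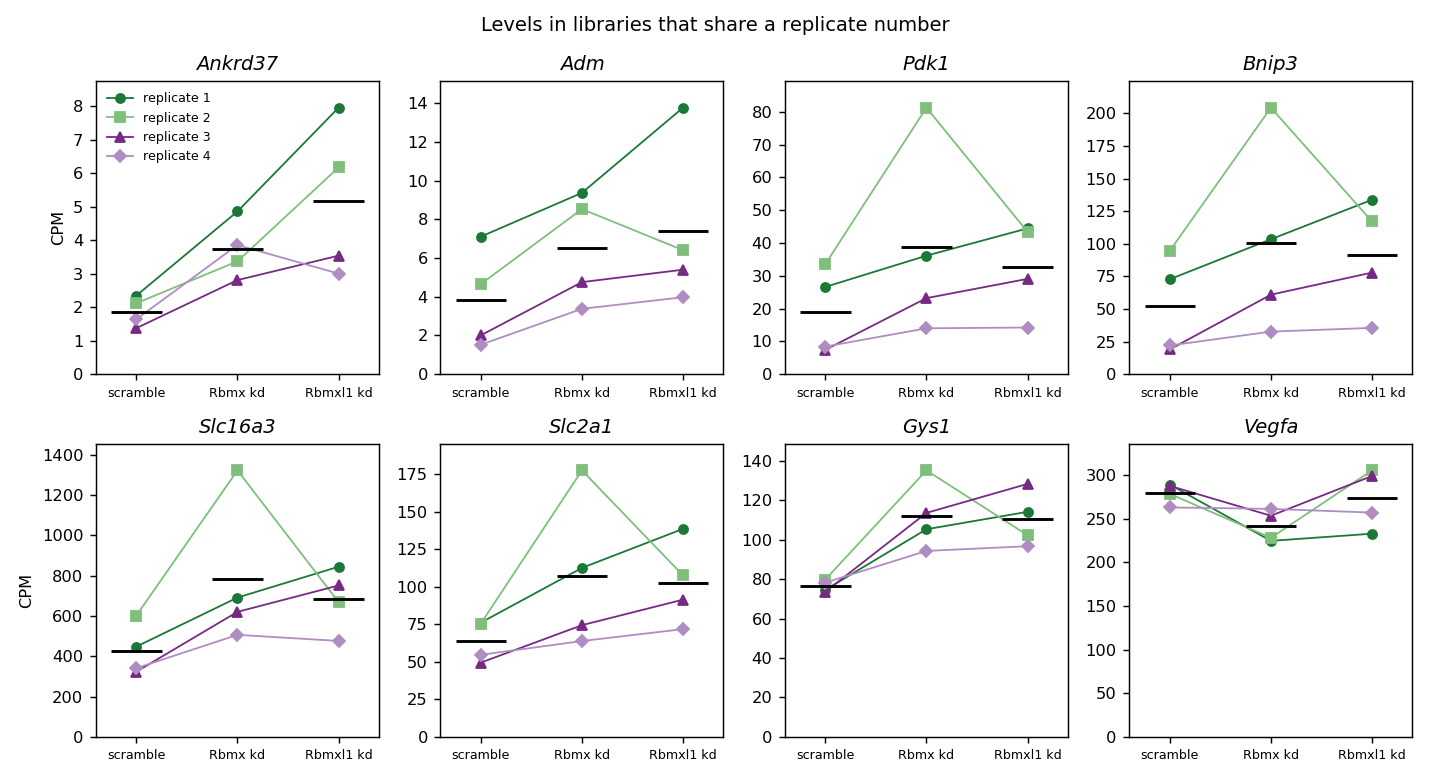
CPM of 8 members in each library, with lines joining libraries of 1 replicate number and black bars at the mean of each group (n = 4). In Ankrd37, Adm, Pdk1, Bnip3, Slc16a3, Slc2a1 and Gys1 every knockdown point lies above the scramble point of its number, whereas for Vegfa 4 of 4 Rbmx knockdown points lie below.

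In the metabolic class 4 of 8 tested members rose after Rbmx and 3 after Rbmxl1 knockdown. Pdk1, the kinase that shuts pyruvate out of the mitochondrial oxidation pathway (ENSMUSG00000006494, chr2:71873224-71903858), had 26.6, 33.5, 7.41 and 8.40 CPM in the scramble libraries, 36.1, 81.3, 23.2 and 14 CPM after Rbmx knockdown and 44.5, 43.4, 29.1 and 14.2 CPM after Rbmxl1 knockdown. Its values in scramble replicates 3 and 4 were the lowest of the 12, and replicate 2 of the Rbmx knockdown the highest. The change was 1.01 ± 0.20 (adjusted p = 0.00951) and 0.95 ± 0.20 (adjusted p = 0.0173). Ak4, a mitochondrial adenylate kinase, had 33.8, 32.2, 29.7 and 28 CPM in the scramble libraries, 43.1, 57.1, 36.9 and 29.9 CPM after Rbmx knockdown and 49.3, 46.8, 40.0 and 34.3 CPM after Rbmxl1 knockdown. It lay wholly above scramble after Rbmxl1 knockdown and was called in both, with 0.40 ± 0.09 (adjusted p = 0.0161) and 0.45 ± 0.09 (adjusted p = 0.0155).

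Gys1, the glycogen synthase of most tissues outside the liver, was among the steadiest of the called members. It had 74.6, 79.8, 73.6 and 78.2 CPM in the scramble libraries, 105, 135, 114 and 94.3 CPM after Rbmx knockdown and 114, 102, 128 and 96.7 CPM after Rbmxl1 knockdown. The scramble libraries varied little, at 76.6 ± 2.94 CPM (SD, n = 4), and all 8 knockdown libraries lay above them, at 112 ± 17.3 and 110.4 ± 14 CPM. The change was 0.54 ± 0.09 (adjusted p = 0.00522) and 0.52 ± 0.09 (adjusted p = 0.00644). Its exons overlap those of Ruvbl2 on the other strand. The glycogen phosphorylase Pygl had 43.8, 51.6, 26.1 and 27.1 CPM in the scramble libraries, 56.4, 75.9, 36.9 and 34.7 CPM after Rbmx knockdown and 59.5, 52.9, 37.1 and 31.2 CPM after Rbmxl1 knockdown. It rose after Rbmx knockdown (0.45 ± 0.08, adjusted p = 0.00866) and missed the threshold after Rbmxl1 knockdown (0.30 ± 0.08, adjusted p = 0.0526), which DESeq2 passed (adjusted p = 0.0194).

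The branching enzyme Gbe1, also of glycogen synthesis, had 0.33 ± 0.13 and 0.26 ± 0.13 and was not called, although 8 of 8 knockdown libraries were above their scramble partner. The sterol regulator Insig2 had 0.12 ± 0.08 and 0.20 ± 0.08 and was not called. Pfkfb3 and Pfkfb4, bifunctional enzymes that set the level of an activator of glycolysis, had values below 0 without a call. These were -0.04 ± 0.06 and -0.14 ± 0.06 for Pfkfb3, and -0.16 ± 0.10 and -0.13 ± 0.10 for Pfkfb4.

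Of the transcription and chromatin regulators 1 of 6 was called after Rbmx knockdown and none after Rbmxl1 knockdown, with class medians of 0.01 and 0.07, against medians from 0.29 to 0.62 and from 0.28 to 0.61 in the other classes. Mxi1, a partner of MAX that opposes MYC, had 43.1, 40.9, 41 and 40.7 CPM in the scramble libraries, 52.2, 58.1, 47.8 and 43.3 CPM after Rbmx knockdown and 52.6, 48.2, 45.4 and 44 CPM after Rbmxl1 knockdown. Both knockdowns lay wholly above the scramble libraries, but only the Rbmx value of 0.27 ± 0.07 was called (adjusted p = 0.0232), not the Rbmxl1 value of 0.19 ± 0.07 (adjusted p = 0.114). Rcor2, a corepressor subunit and the gene of this class with the highest level per kilobase, had 142, 131, 127 and 119 CPM in the scramble libraries, 150.0, 165, 133 and 130.1 CPM after Rbmx knockdown and 143, 135, 153 and 134 CPM after Rbmxl1 knockdown. Its groups overlapped, and the change was 0.16 ± 0.07 (adjusted p = 0.167) and 0.12 ± 0.07 (adjusted p = 0.330). The histone demethylase Kdm3a had -0.05 ± 0.06 and 0.02 ± 0.06, the repressor Bhlhe40 -0.08 ± 0.06 and 0.07 ± 0.06, and the oxygenase Jmjd6 0.07 ± 0.06 and 0.07 ± 0.06. Cited2, which is itself induced by HIF and competes with its alpha subunit for coactivators, had -0.18 ± 0.08 (adjusted p = 0.181) and -0.29 ± 0.08 (adjusted p = 0.0629), and was lower than scramble in 8 of 8 same-number pairs.

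Of the remaining genes Ankrd37 showed the largest change of all members after Rbmxl1 knockdown, and one equal to that of Pdk1 after Rbmx knockdown. This ankyrin-repeat gene (ENSMUSG00000050914, chr8:45996902-46005707) is a well-known HIF target of low abundance, and had 2.35, 2.12, 1.37 and 1.64 CPM in the scramble libraries, 4.86, 3.37, 2.81 and 3.86 CPM after Rbmx knockdown and 7.96, 6.17, 3.54 and 3.00 CPM after Rbmxl1 knockdown. The scramble libraries were the 4 lowest of the 12. The change was 1.01 ± 0.19 (adjusted p = 0.00841) and 1.42 ± 0.19 (adjusted p = 0.00150). Its exons overlap those of Lrp2bp and Ufsp2 on the other strand. Ndrg1, a stress-responsive gene of differentiation, had 67, 64.6, 44.8 and 48.4 CPM in the scramble libraries, 102, 141, 64.8 and 53.6 CPM after Rbmx knockdown and 111, 98.3, 64.5 and 57.9 CPM after Rbmxl1 knockdown. Replicates 3 and 4 of each knockdown lay within the scramble range, and the change was 0.61 ± 0.11 (adjusted p = 0.00772) and 0.53 ± 0.11 (adjusted p = 0.0173). Ddit4, with 0.14 ± 0.07 and 0.06 ± 0.07, and the ribosome quality-control gene Ankzf1, with 0.09 ± 0.10 and 0.21 ± 0.10, were not called.

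Compared directly, the knockdowns gave no called difference in any of the 36 members, by edgeR with or without the block or by DESeq2 with it. With or without the block, edgeR called 0.0114% of all genes. The log2 difference was above 0, that is higher after Rbmx knockdown, in 23 of 36 members and 48.8% of all genes. No member had groups of 4 libraries apart, higher (0.569% of all genes) or lower (0.552%), or the same sign in 4 of 4 pairs, higher (5.63%) or lower (6.52%). At an unadjusted p under 0.05, 3 of 36 members passed with the block, as did 5.7% of all genes, and 0 of 36 without it, as did 1.55% of all genes. Those 3 were Ankrd37, Bhlhe40 and Vegfa, each lower after Rbmx than after Rbmxl1 knockdown. The difference was -0.41 ± 0.18 for Ankrd37, with -0.77 to -0.05 at 2 SE on either side (adjusted p = 0.859). For Vegfa it was -0.17 ± 0.07 (-0.32 to -0.02), and for Bhlhe40 -0.15 ± 0.06 (-0.27 to -0.02). For the genes with the largest changes the interval was wide: -0.32 to 0.45 for Pdk1, -0.41 to 0.36 for Bnip3 and -0.47 to 0.18 for Adm. Differences between the knockdowns within these bounds cannot be told from 0 here.

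The members also differed between the replicate sets, whatever the plasmid. In replicates 3 and 4 most were lower than in replicates 1 and 2, with a median log2 ratio of -1.0 over the 5 mitochondrial genes and -0.69 over the 5 collagen enzymes tested, against -0.17 over the 3 secreted factors. This split was found from the values, so it is described without a test. The median log2 ratio of replicates 3 and 4 over replicates 1 and 2 was -0.55 over the members and 0.02 over all genes. It was below 0 for 31 of 36 members and for 8273 of 17569 genes. For 12 of 36 members all 6 libraries of replicates 3 and 4 lay below all 6 of replicates 1 and 2, as for 10.6% of all genes: Bhlhe40, Bnip3l, Gbe1, Insig2, Jmjd6, Kdm3a, Loxl2, Ndufa4l2, P4ha1, Plod1, Plod2 and Pygl. Ndufa4l2 had the largest ratio at -2.49, followed by Bnip3 at -1.55, Pdk1 at -1.46 and Adm at -1.24. Bhlhe40 ran from 109.7 to 172 CPM in replicates 1 and 2 and from 71.8 to 93.2 CPM in replicates 3 and 4, beside knockdown values of -0.08 ± 0.06 and 0.07 ± 0.06 that were not called. Pfkfb3 alone lay wholly the other way, at 63.1 to 76.3 CPM against 93.6 to 107 CPM, as did 9.4% of all genes. Car12, Car9, Vegfa and Ankzf1 also had ratios above 0, of 0.31, 0.24, 0.06 and 0.32. Of the 36 members, 22 had their highest value in replicate 2 of the Rbmx knockdown and 7 in replicate 1 of the Rbmxl1 knockdown. In scramble replicate 3, 19 had their lowest. The same counts over all genes were not made, so these are not read as a trait of the members. Of the summed marker levels, 3 of 5 lay apart between the sets: the neuronal and neuroblastoma markers stood at 1851 to 2047 CPM in replicates 1 and 2 and at 1522 to 1705 CPM in replicates 3 and 4, the fibroblast markers at 1.85 to 2.98 against 0.975 to 1.84 CPM, and the endothelial markers at 6.62 to 8.75 against 5.14 to 6.42 CPM. The macrophage markers overlapped, at 0.453 to 1.22 against 0.727 to 1.52 CPM, as did the glial markers, at 16 to 19.9 against 12.9 to 17.5 CPM. Their part in the members' split was not tested.

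**Figure D5:**
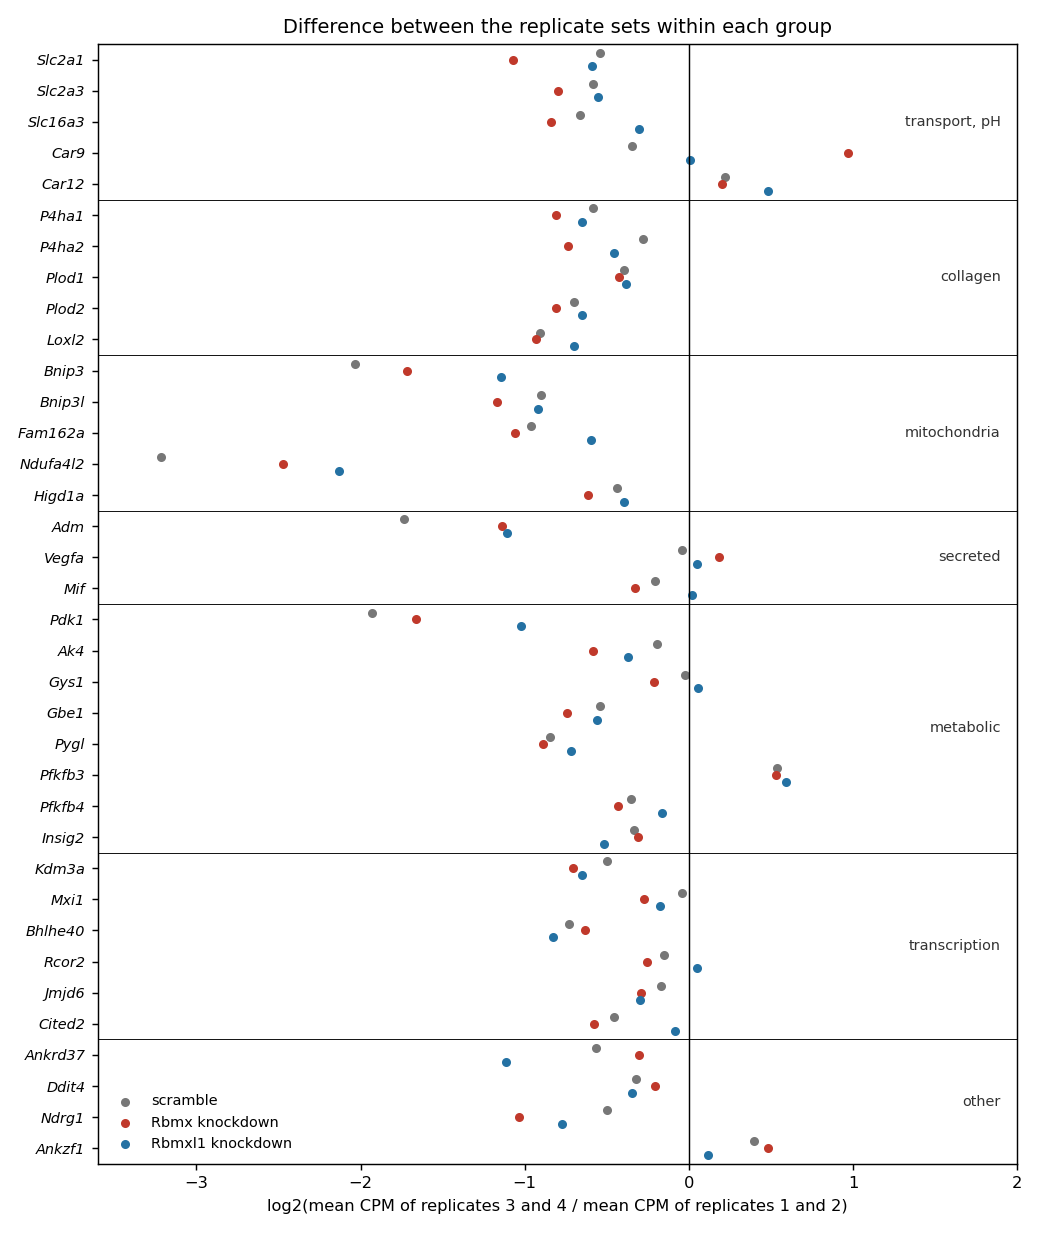
Log2 ratio of the mean CPM of replicates 3 and 4 over that of replicates 1 and 2, within each group (2 libraries over 2), for the 36 tested members. Bnip3, Ndufa4l2, Adm and Pdk1 lie farthest to the left, with the scramble point leftmost in each. Pfkfb3, Ankzf1 and Car12 lie to the right of 0 in all 3 groups.

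The knockdowns were also compared with scramble within each set. With replicates 3 and 4 only, 16 of 36 members were called higher and Cited2 lower after Rbmx knockdown, where 4.91% of all genes were called higher and 5.21% lower, and 18 of 36 higher and none lower after Rbmxl1 knockdown, where 2.8% and 2.72% were. With replicates 1 and 2 only, no member was called after Rbmx knockdown, where 0.0115% of all genes were called higher, and Ankrd37 alone, higher, after Rbmxl1 knockdown, where 0.0919% were called higher and 0.0804% lower. These fits have 2 residual degrees of freedom each. Adm changed by 0.66 in replicates 1 and 2 and by 1.19 in replicates 3 and 4 after Rbmx knockdown, and by 0.74 and 1.40 after Rbmxl1 knockdown. Ndufa4l2 gave 0.43 and 1.19, and 0.40 and 1.45. Slc2a1 gave 0.93 and 0.39, and 0.72 and 0.63. Gys1 gave 0.64 and 0.44, and 0.50 and 0.54. The test of the difference between the sets called no member and no gene in either knockdown, with 4 of 36 members at an unadjusted p under 0.05 in each, as were 11.1% and 8.36% of all genes. For Rbmx knockdown these were Ak4, Ndrg1, Ndufa4l2 and P4ha2, and for Rbmxl1 knockdown Adm, Cited2, Ndufa4l2 and Pdk1. Ndufa4l2 had the largest of these, 0.78 ± 0.31 (adjusted p = 0.388) and 1.07 ± 0.31 (adjusted p = 0.375), higher in replicates 3 and 4.

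Relative to the scramble library of the same number, the 36 members had a median log2 difference of 0.29, 0.55, 0.37 and 0.16 in Rbmx knockdown replicates 1 to 4 and of 0.46, 0.15, 0.46 and 0.20 in the Rbmxl1 knockdown replicates. From 27 to 30 members were above their scramble partner in the Rbmx knockdown libraries and from 25 to 32 in the Rbmxl1 knockdown libraries. The count of called members, and that over all genes, which was 1467 and 783 with all libraries, depended on the libraries in the fit, and was highest without Rbmxl1 knockdown replicate 2, at 23 members and 1904 genes after Rbmx knockdown and 20 members and 1032 genes after Rbmxl1 knockdown. Without replicate 3, 9 of 36 members and 146 of all genes were called after Rbmx knockdown, and 2 members and 107 genes after Rbmxl1 knockdown. Without scramble replicate 3 alone, these were 11 members and 281 genes, and 3 members and 126 genes. After Rbmxl1 knockdown 7 members and 188 genes were called without replicate 1, and 6 members and 100 genes without replicate 4. Without scramble replicate 1 or 2 these were 10 members and 239 genes, and 5 members and 196 genes. Without Rbmxl1 knockdown replicate 1 or 3 they were 4 members and 231 genes, and 9 members and 341 genes. The median log2 fold change moved less, to between 0.27 and 0.43 and between 0.23 and 0.42 when any number or library was left out. Ankrd37 kept its call in 16 of 16 such fits in both knockdowns, and Pdk1, Bnip3, Gys1, Mif, Ndrg1, Pygl and Slc16a3 in 16 of 16 after Rbmx knockdown. Of the other Rbmx calls, that of Higd1a was kept in 6 of 16 fits, Ndufa4l2 in 7, Mxi1 and P4ha2 in 8 and Ak4 in 10, and the rest in 13 to 15. After Rbmxl1 knockdown Adm kept its call in 16 of 16 and Gys1 in 15, Mif in 4 and Fam162a in 6, and the other called members in 7 to 12.

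The machinery that controls HIF was taken as a list of 10 subunits and oxygen sensors, of which 7 were tested. Of these, 2 were called at RNA level, both of them prolyl hydroxylases that HIF itself induces. Over all genes tested, 8.35% were called after Rbmx knockdown and 4.46% after Rbmxl1 knockdown. Egln3 rose in both knockdowns, by 1.01 ± 0.23 (adjusted p = 0.0165) and 0.97 ± 0.23 (adjusted p = 0.0309), and Egln1 after Rbmx knockdown, by 0.43 ± 0.10 (adjusted p = 0.0202) against 0.37 ± 0.10 (adjusted p = 0.0503). Hif1a, the alpha subunit, stood at 169.6 ± 11.6, 174 ± 7.35 and 167 ± 9.01 CPM (SD, n = 4) in the scramble, Rbmx knockdown and Rbmxl1 knockdown groups, and was not called (0.03 ± 0.06 and -0.02 ± 0.06). The related subunit Epas1 had no read in any library. Arnt, Egln2, Vhl and Hif1an were not called.

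A second list holds 22 other HIF targets, of which Egln1 and Egln3 are also on the list above. Of its 16 tested genes, 5 rose and 1 fell after Rbmx knockdown, and 3 rose after Rbmxl1 knockdown, with medians of 0.26 and 0.28. Cox4i2, a subunit of cytochrome oxidase, rose by 0.96 ± 0.25 (adjusted p = 0.0313) and 1.11 ± 0.26 (adjusted p = 0.0281). Narf rose by 0.45 ± 0.09 (adjusted p = 0.0109) and 0.37 ± 0.09 (adjusted p = 0.0330). Wsb1, a ubiquitin ligase subunit, was the one that fell after Rbmx knockdown (-0.32 ± 0.10, adjusted p = 0.0498), and had -0.28 ± 0.10 after Rbmxl1 knockdown (adjusted p = 0.109). Among 16 glycolytic enzymes 13 rose after Rbmx and 10 after Rbmxl1 knockdown, with medians of 0.52 and 0.45. Over all genes tested, 4.16% were called higher and 4.19% lower after Rbmx knockdown, and 2.25% and 2.2% after Rbmxl1 knockdown. All these lists were chosen with earlier results of these libraries known, so nothing is read from their shares. Of 8 tested neuronal and neuroblastoma markers Mycn alone was called, higher in both knockdowns; the share of any change in neuronal state in these results was not tested.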

How the data were processed

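Libraries were stranded and made from total RNA after removal of ribosomal RNA of GFP-sorted Neuro-2a cells, per the labels' protocols. The deposited files hold raw read counts per Ensembl gene made by the authors. The submitters' processing notes name cutadapt 1.1037, STAR 2.5.3a, HTSeq 0.6.1p1, R 3.3.2, DESeq2 1.16.1 and build mm10, without role or order; the annotation and strand setting are not given in the sources used here. Of the reads listed in each file 52.3% to 57.4% are in rows that name no gene (no feature, ambiguous, or aligned in several places) and were left out. Genes were named, and exon lengths, overlaps and shared 50-base words computed, from GENCODE M21 (GRCm38), in which 55141 of 55401 identifiers were found and 260 were not.

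Counts were fitted over all 12 libraries in edgeR 4.0.16 (R 4.3.3): TMM scaling, filterByExpr with a minimum count of 10 and total of 15 (17569 genes), the quasi-likelihood test, and Benjamini-Hochberg adjustment. CPM values are relative to the TMM-scaled total of reads in genes, as edgeR's cpm function gives them. SEs of log2 fold changes come from the quasi-likelihood F statistic. The replicate number was a block. The labels give each group the same numbers without saying what they mark; the pairing comes from the values. Deviations from the group means correlated at 0.21 to 0.56 in all 12 same-number pairs, at 0.13 to 0.47 in 12 pairs of the other number of the same set (1 with 2, 3 with 4) and at -0.61 to -0.15 in 24 pairs across sets. The common dispersion was 0.00929 with the block and 0.0362 without.

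Every member was named; those called got their value in each library, and for a class without a call in a knockdown (transcription, after Rbmxl1 knockdown) the gene with the highest CPM did; Vegfa was added after its values were seen. A gene counted in the list of other HIF targets is not reported here. Members, lists and tests were chosen with earlier results of these data known. Alternatives were the fit without the block, DESeq2 1.42.0, RLE scaling, no filter, each replicate set alone and leaving out each number or library. Members with no exon overlap and under 20% shared words were counted as an alternative chosen after seeing the data. The fitting code was tested on simulated data.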

Additional observations from a re-analysis of the deposited data

Results flagged for a closer look

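Among 108 sets of 4 libraries (36 members in 3 groups), 2 held a library far from the other 3. For 4 libraries drawn alike, chance alone gives about 1 in 20 such sets, or 5.4 of them. The split of replicates 1 and 2 from 3 and 4 widens the range within a set, so that figure does not apply here. The low count therefore does not show that no library deviates. Car12 stood at 151 CPM in replicate 3 of the Rbmxl1 knockdown, against 86.8 to 96.8 CPM in the other replicates. Mxi1 stood at 43.1 CPM in scramble replicate 1, against 40.7 to 41.0 CPM in the others, a small distance in a group with little spread.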

How the results depend on the processing

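The replicate block carries the calls: with no replicate block, 0 members were called in both knockdowns and 1 gene in all in each, against 20 and 16 members and 1467 and 783 genes with it. The median log2 fold change of the members in each knockdown against scramble stayed above 0 in every alternative fit. It was not computed for the members without exon overlap or shared sequence. Under RLE scaling all 40 changes of the 20 genes kept their direction and their side of the threshold. DESeq2 called 1279 genes after Rbmxl1 knockdown and 10 in the direct comparison of the knockdowns, and leaving out the filter 1243 and 86. DESeq2 called 21 and 17 members, of which 19 and 15 are among the 20 and 16 of edgeR; it called 2024 genes after Rbmx knockdown. In replicates 1 and 2 only, 0 members and 4 genes were called after Rbmx knockdown, 1 member and 30 genes after Rbmxl1 knockdown, and 4 genes in the direct comparison; in replicates 3 and 4 only the last was 18. Leaving out a replicate number or a library gave 9 to 23 members and 146 to 1904 genes after Rbmx knockdown, 2 to 20 members and 100 to 1032 genes after Rbmxl1 knockdown, and 2 to 7 genes in the direct comparison. The Rbmxl1 count was 7 members without replicate 1, 6 without replicate 4, 10, 5 and 3 without scramble replicate 1, 2 or 3, and 4 and 9 without Rbmxl1 knockdown replicate 1 or 3. Of the 19 tested members whose exons overlap no other gene and share little sequence, an alternative chosen after seeing the data, 10 and 8 were called. No called change turned its direction. With 4 libraries a group the fit has 6 residual degrees of freedom. Car9 rests on 5 to 21 reads a library.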
